A study of Mus musculus with 4 samples.

Results

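The plasminogen activation and tissue factor system was followed through 8 genes in epithelial cells taken from the inflamed mouse colon. The genes were Plat, Plau, Plaur, Serpinb2, F3, Tfpi, Tfpi2 and Thbd, chosen by symbol among the 31227 genes of the count table. All 8 were found. RNA sequencing compared 2 libraries of mice with an epithelial knockout of Smad4 (Smad4 KO, replicates 1 and 2) with 2 libraries of wild-type mice (WT, replicates 1 and 3). All mice were 8 to 10 weeks old and had 3.5% dextran sulfate sodium (DSS), which damages the colon lining, in their water for 5 days. Plain water followed until day 7, when they were killed. The labels give the time as 5 days. Mice not given DSS were not analysed here, so the comparison is between genotypes under DSS. The sources used here do not give the promoter or Cre that removed Smad4, nor whether the 2 libraries of a genotype are separate animals. The p-values therefore cover the spread among these libraries alone, and that spread may be technical.

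The 2 proteases Plat (tissue-type plasminogen activator) and Plau (urokinase) cut plasminogen into plasmin, the enzyme that dissolves fibrin and cleaves matrix proteins. Plaur holds urokinase on the cell surface, and Serpinb2 (plasminogen activator inhibitor type 2) blocks urokinase. F3, or tissue factor, binds factor VII and starts blood clotting. Tfpi blocks that step, its relative Tfpi2 inhibits plasmin and other proteases, and Thbd (thrombomodulin) turns thrombin towards activating the anticoagulant protein C. In injured epithelium, urokinase and its receptor are known from the migrating cells at the edge of a wound.

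The Smad4 KO libraries held 61260099 and 67927291 counts and the WT libraries 56018009 and 42577920. A level is in CPM, the count scaled to a common library size by TMM, and a single count stood for 0.0150 to 0.0229 CPM. Smad4 itself had 51.5 and 41.1 CPM in the Smad4 KO libraries and 152 and 180 CPM in the WT libraries (log2 fold change -1.84 with an SE of 0.143, edgeR adjusted p = 0.00163), so the direction went with the labels in all 4 libraries. The label of epithelial cells was checked on 10 markers, all of them detected. By the same test 5 rose and 1 fell (60%, against 15.2% of all tested genes). Their summed levels were 17146 and 17709 CPM in the Smad4 KO libraries and 17200 and 16894 CPM in the WT libraries. The most abundant was Krt8, a keratin of simple epithelium, at means of 5625 CPM in Smad4 KO and 5965 CPM in WT.

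Of the 8 genes, 5 rose in the Smad4 KO libraries (Plat, Plau, Plaur, Serpinb2 and F3), 1 fell (Tfpi) and 2 did not pass the test (Tfpi2 and Thbd). The test was edgeR's quasi-likelihood test over 15838 genes with a Benjamini-Hochberg adjusted p under 0.05. Over all tested genes 15.2% passed, 8.83% by rising and 6.40% by falling. The median log2 fold change of the 8 was 2.34, also with Serpinb2 at its lower bound, and that of all tested genes was 0.01. Serpinb2 and Thbd reached the level needed to be tested in the Smad4 KO libraries only, so such a gene could enter the test only by being higher there. Of the other 6, 4 rose, 1 fell and 1 did not pass, with a median of 1.42. In bulk RNA, fewer cells of a type and less RNA per cell cannot be told apart.

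**Figure D1:**
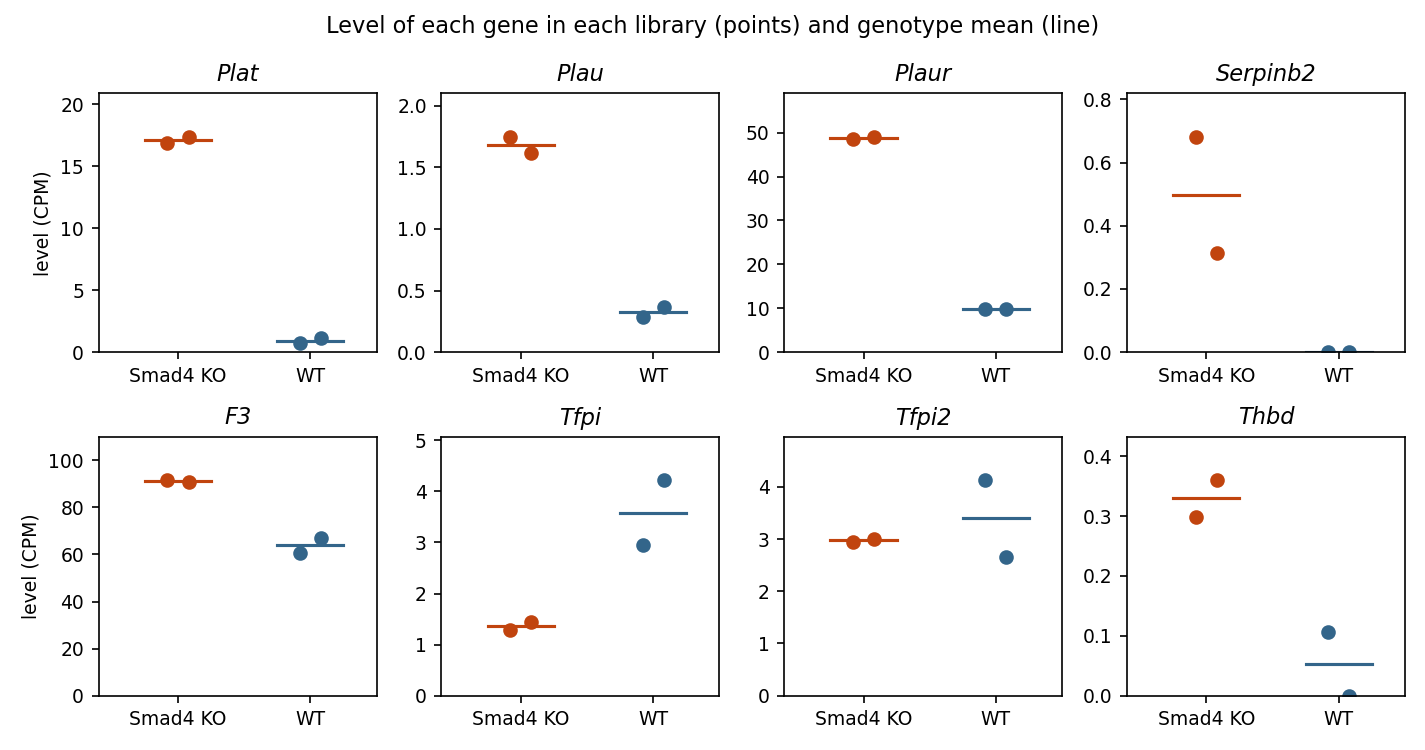
Level in CPM (vertical axes, each from 0) of the 8 genes in the 2 Smad4 KO and 2 WT libraries, with a point per library and a line at the genotype mean. Plat, Plau, Plaur and F3 were higher in both Smad4 KO libraries, Tfpi was lower in both, and the genotypes overlapped for Tfpi2.

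The RefSeq promoter table (GRCm38.p6) had entries for 5 of the 8 genes: Plaur, Serpinb2, F3, Tfpi and Tfpi2. The 250 bases before the start are shown for the 4 genes that passed the test and had an entry. They allow the 3 risen genes with an entry to be read beside the fallen one. Plat and Plau, which also rose, and Thbd had no entry, so nothing is known here of their letters. They lie at chr7:24462233-24462482 on the plus strand for Plaur, chr3:121723287-121723536 on the plus strand for F3, chr1:107511173-107511422 on the plus strand for Serpinb2 and chr2:84476760-84477009 on the minus strand for Tfpi. Where a gene had several starts, the one nearest to the 5′ end of the gene in GENCODE M21 was taken. Capitals mark the letters TGANTCA, which AP-1 factors bind, and TATAAA, the TATA box, on either strand. Each sequence reads 5′ to 3′ along the strand of its gene.
Plaur: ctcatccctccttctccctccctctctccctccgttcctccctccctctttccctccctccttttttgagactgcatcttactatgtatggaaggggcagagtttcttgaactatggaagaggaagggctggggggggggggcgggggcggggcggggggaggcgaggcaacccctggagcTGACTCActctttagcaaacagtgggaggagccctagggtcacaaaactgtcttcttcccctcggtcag
F3: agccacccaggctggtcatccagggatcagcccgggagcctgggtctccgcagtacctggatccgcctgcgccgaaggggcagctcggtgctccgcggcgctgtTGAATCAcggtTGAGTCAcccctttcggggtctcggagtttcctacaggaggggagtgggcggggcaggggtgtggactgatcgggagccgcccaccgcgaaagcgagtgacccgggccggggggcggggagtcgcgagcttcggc
Serpinb2: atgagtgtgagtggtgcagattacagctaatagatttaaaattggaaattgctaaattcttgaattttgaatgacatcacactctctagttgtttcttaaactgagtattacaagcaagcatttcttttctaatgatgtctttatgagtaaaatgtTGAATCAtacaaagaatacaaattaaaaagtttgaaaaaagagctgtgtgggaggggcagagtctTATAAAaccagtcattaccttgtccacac
Tfpi: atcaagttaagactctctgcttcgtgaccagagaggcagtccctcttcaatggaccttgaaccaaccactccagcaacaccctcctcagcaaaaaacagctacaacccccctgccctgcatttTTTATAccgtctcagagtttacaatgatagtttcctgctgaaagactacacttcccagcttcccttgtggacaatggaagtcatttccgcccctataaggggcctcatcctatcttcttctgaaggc

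The letters TGANTCA stood in the windows of Plaur, F3 and Serpinb2, and in 6.73% of all 32536 distinct promoter windows of this length. As a near-palindrome the motif was found on both strands at each place. In Plaur it began 69 bases before the start, in Serpinb2 94 bases, and F3 held 2 matches, which began 146 and 135 bases before the start. The windows of Tfpi and Tfpi2 did not hold it. For Tfpi2 the bases after the start used were not found in a GENCODE M21 transcript of the gene, so its window is less certain. TATAAA stood in the window of Serpinb2, beginning 29 bases before the start, on the other strand in that of Tfpi, and in 12.3% of all windows. The letters GGAATG, which Tead factors bind (12.6% of windows), and CAGAC, part of many Smad binding sites (42.2% of windows), were in none of the 5 windows. The searched motifs overlapped nowhere in these windows. A match is a description of the letters and not a measurement of binding.

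Plat rose most of the 8 among those whose fold could be fitted. It lies on the plus strand of chromosome 8, from 22757727 to 22782844 (ENSMUSG00000031538, GENCODE M21 on GRCm38, as for the positions below). It had 1014 and 1160 counts in the Smad4 KO libraries, or 16.9 and 17.4 CPM, and 41 and 49 counts in the WT libraries, or 0.723 and 1.12 CPM. Both Smad4 KO libraries stood far above both WT libraries. The rise was 18.7-fold (log2 fold change 4.23 with an SE of 0.246, edgeR adjusted p = 0.000689). With any 1 library left out the log2 fold change lay between 3.91 and 4.56 and the call held in all 4 fits (edgeR adjusted p up to 0.00654).

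Plau, the other activator (ENSMUSG00000021822, chromosome 14, 20836660 to 20843385, plus strand), was low in every library. It had 105 and 108 counts in the Smad4 KO libraries, or 1.75 and 1.62 CPM, and 16 counts in each WT library, or 0.282 and 0.367 CPM. The genotypes did not overlap, and Plau rose 5.18-fold (log2 fold change 2.37 with an SE of 0.436, edgeR adjusted p = 0.0232). The call was lost without Smad4 KO replicate 1, Smad4 KO replicate 2 or WT replicate 1 (edgeR adjusted p = 0.169, 0.147 and 0.0521), while the log2 fold change stayed between 2.18 and 2.57. Within a library the counts of Plat were 9.66 and 10.7 times those of Plau in Smad4 KO and 2.56 and 3.06 times in WT, ratios that need no scaling between libraries.

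Plaur, the urokinase receptor (ENSMUSG00000046223, chromosome 7, 24462484 to 24475968, plus strand), had 2924 and 3279 counts in the Smad4 KO libraries, or 48.6 and 49.1 CPM, and 560 and 425 counts in the WT libraries, or 9.87 and 9.75 CPM. Libraries of a genotype nearly coincided, and the genotypes were well apart. Plaur rose 4.98-fold (log2 fold change 2.32 with an SE of 0.0964, edgeR adjusted p = 0.000298), and its log2 fold change lay between 2.31 and 2.33 whichever library was left out (edgeR adjusted p up to 0.00401).

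Neutrophils carry Plaur too, and their markers were higher in the same Smad4 KO libraries. Of 10 neutrophil markers 7 could be tested, of which 5 rose (71.4%, against 15.2% of all tested genes passing). Mpo, Camp and Elane had no count in any library. The list summed to 440 and 427 CPM in Smad4 KO and 130 and 103 CPM in WT, and without Ly6g, its most abundant member, to 110 and 108 CPM in Smad4 KO and 13.6 and 9.75 CPM in WT. Ly6g belongs to a family of similar genes between which counting could have moved reads. The neutrophil marker S100a9 had 43.3 and 42.6 CPM in Smad4 KO and 4.44 and 3.37 CPM in WT. Plaur counts were 1.12 and 1.15 times those of S100a9 in the Smad4 KO libraries and 2.22 and 2.89 times in the WT libraries. Against Csf3r, the receptor for granulocyte colony-stimulating factor, they were 3.44 and 3.95 times in Smad4 KO and 2.80 and 2.47 times in WT. The part of neutrophil RNA in the rise of Plaur was not tested.

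Serpinb2 (ENSMUSG00000062345, chromosome 1, 107511423 to 107535478, plus strand) was found in the Smad4 KO libraries, with 41 and 21 counts, or 0.682 and 0.315 CPM, and had no count in either WT library. Replicate 1 had more than replicate 2, and both were low. A floor of 3 counts over the WT libraries was 0.0299 CPM, which covers counting error only. Against it Serpinb2 was at least 16.7-fold higher in Smad4 KO (edgeR adjusted p = 0.0474). The smallest nonzero count among the genes of the lists used here was 4. Whether low counts were set to 0 is not known here, and if they were, such folds are not lower bounds. The call was lost whichever library was left out (edgeR adjusted p between 0.0843 and 0.280). The lower bound was then 10.5-fold without Smad4 KO replicate 1, 22.8-fold without Smad4 KO replicate 2, 7.24-fold without WT replicate 1 and 9.42-fold without WT replicate 3, against 3 counts over the WT libraries left. Exons of Serpinb2 share 291 bases with Serpinb10 on the same strand, and Serpinb10 is not among the counted genes. Serpinb2 also has many relatives of similar sequence, so its counts are uncertain.

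Tissue factor, F3 (ENSMUSG00000028128, chromosome 3, 121723537 to 121735048, plus strand), had the highest level of the 8 genes in both genotypes and a small change. It had 5506 and 6065 counts in the Smad4 KO libraries, or 91.6 and 90.9 CPM, and 3443 and 2925 counts in the WT libraries, or 60.7 and 67.1 CPM. The Smad4 KO libraries were close to each other and above both WT libraries. F3 rose 1.43-fold (log2 fold change 0.51 with an SE of 0.0786, edgeR adjusted p = 0.0131). Without Smad4 KO replicate 1 or 2 the adjusted p was 0.101 or 0.0927, with log2 fold changes of 0.51 and 0.52.

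Tfpi, the inhibitor of tissue factor (ENSMUSG00000027082, chromosome 2, 84432855 to 84476775, minus strand), moved the other way. It had 77 and 96 counts in the Smad4 KO libraries, or 1.28 and 1.44 CPM, and 167 and 184 counts in the WT libraries, or 2.94 and 4.22 CPM. Both Smad4 KO libraries were below both WT libraries, of which replicate 3 was the higher. Tfpi fell 2.63-fold (log2 fold change -1.39 with an SE of 0.307, edgeR adjusted p = 0.0401). The call was lost without Smad4 KO replicate 1, Smad4 KO replicate 2 or WT replicate 3 (edgeR adjusted p = 0.182, 0.150 and 0.107). Within a library the counts of F3 were 71.5 and 63.2 times those of Tfpi in Smad4 KO and 20.6 and 15.9 times in WT.

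Endothelial cells are a known source of Tfpi, Plat and Thbd. Of 10 endothelial markers 6 could be tested and none rose or fell, and Cldn5 had no count in any library. At an unadjusted p under 0.05, 0 of the 6 passed by edgeR, 0 by DESeq2 and 1 by limma-voom, and 0 passed after adjustment by either other tool. The list summed to 8.85 and 8.24 CPM in the Smad4 KO libraries and 7.86 and 6.33 CPM in the WT libraries. Without Vwf, its most abundant member (4.94 and 3.61 CPM in Smad4 KO, 5.85 and 4.50 CPM in WT), it summed to 3.91 and 4.63 CPM in Smad4 KO and 2.01 and 1.83 CPM in WT, and the median log2 fold change of the 6 was 0.81. Of 4 tested mast cell markers 2 fell (50%, against 15.2% of all tested genes passing). The mast cell list summed to 0.998 and 0.989 CPM in Smad4 KO and 5.89 and 4.24 CPM in WT, with Tpsab1 at no count. Cma1, a mast cell chymase, was the most abundant by the mean over all 4 libraries. It had 0.0665 and 0.120 CPM in Smad4 KO and 2.86 and 1.47 CPM in WT. Mcpt1 also fell, and Mcpt2 was lower in both Smad4 KO libraries and did not pass (log2 fold changes of -3.05 and -1.29). Tpsb2 overlapped between the genotypes, with 0.133 and 0.45 CPM in Smad4 KO and 0.317 and 0.321 CPM in WT. Cpa3 and Mcpt4 had too few counts to test. The part of either cell type in the changes of Plat, Tfpi and Thbd was not tested.

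Tfpi2 (ENSMUSG00000029664, chromosome 6, 3962595 to 3988919, minus strand) had 177 and 201 counts in the Smad4 KO libraries, or 2.94 and 3.01 CPM, and 234 and 116 counts in the WT libraries, or 4.13 and 2.66 CPM. The 2 WT libraries stood on either side of the Smad4 KO libraries. The log2 fold change was -0.19 (SE 0.292, edgeR adjusted p = 0.725), and 0.15 without WT replicate 1. Thbd (ENSMUSG00000074743, chromosome 2, 148404466 to 148408188, minus strand, a gene of 1 exon) had 18 and 24 counts in the Smad4 KO libraries, or 0.299 and 0.360 CPM, and 6 and 0 counts in the WT libraries, or 0.106 and 0 CPM. Both Smad4 KO libraries were higher, and the change did not pass (log2 fold change 2.51 with an SE of 1.31, edgeR adjusted p = 0.275). The log2 fold change was 1.62 without WT replicate 3. Without WT replicate 1 no WT count remained. Thbd was then at least 4.79-fold higher in Smad4 KO against 3 counts in the WT library left (0.0688 CPM), with the same limit as for Serpinb2. With any 1 library left out it did not pass (edgeR adjusted p between 0.114 and 0.608).

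**Figure D2:**
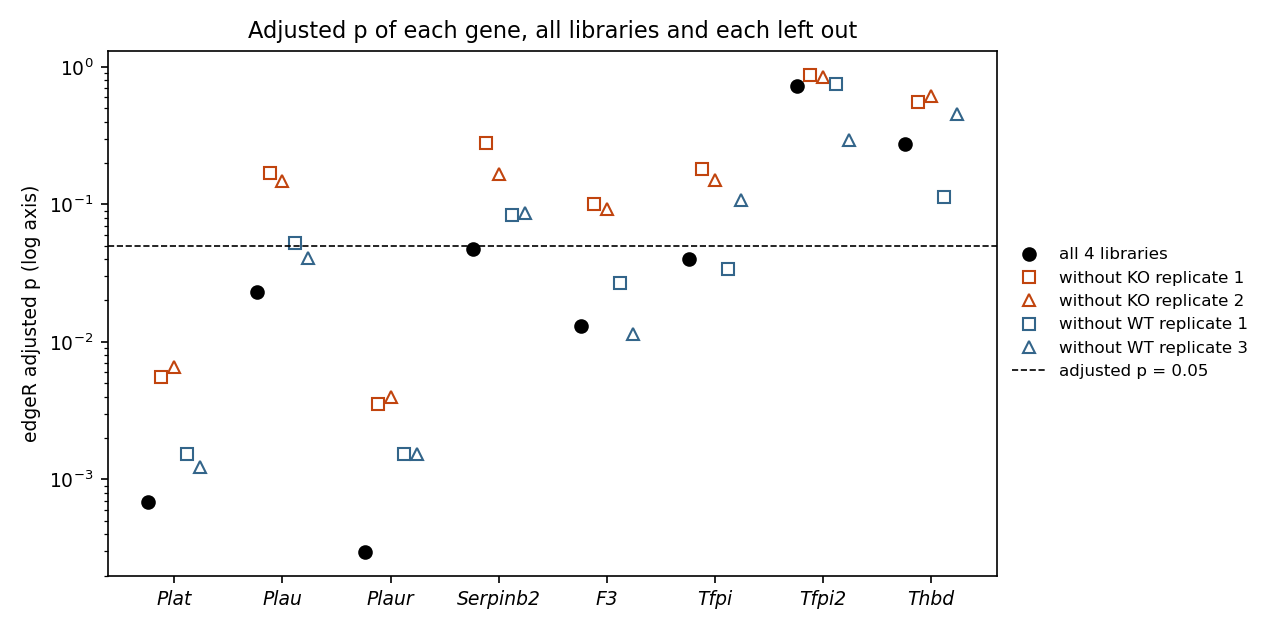
edgeR adjusted p (vertical axis, log scale) of the 8 genes with all 4 libraries (black) and with each library left out (red for Smad4 KO, blue for WT), with a dashed line at 0.05. Plat and Plaur stayed below the line throughout, and without either Smad4 KO library no other gene of the 8 did.

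Levels of different genes were compared per length, as FPKM, the CPM divided by the exon length in kilobases. In Smad4 KO the order was F3 (36.1 FPKM), Plaur (18.7), Plat (2.74), Tfpi2 (1.70), Plau (0.711), Tfpi (0.249), Serpinb2 (0.212) and Thbd (0.0885 FPKM), where the libraries of neighbours overlapped only for Tfpi and Serpinb2. In WT it was F3 (25.3 FPKM), Plaur (3.75), Tfpi2 (1.94), Tfpi (0.656), Plat (0.148), Plau (0.137), Thbd (0.0142) and Serpinb2 (0 FPKM), where Plat and Plau, and Thbd and Serpinb2, overlapped. Plat thus had rank 3 in Smad4 KO and rank 5 in WT, while F3 and Plaur led in both.

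**Figure D3:**
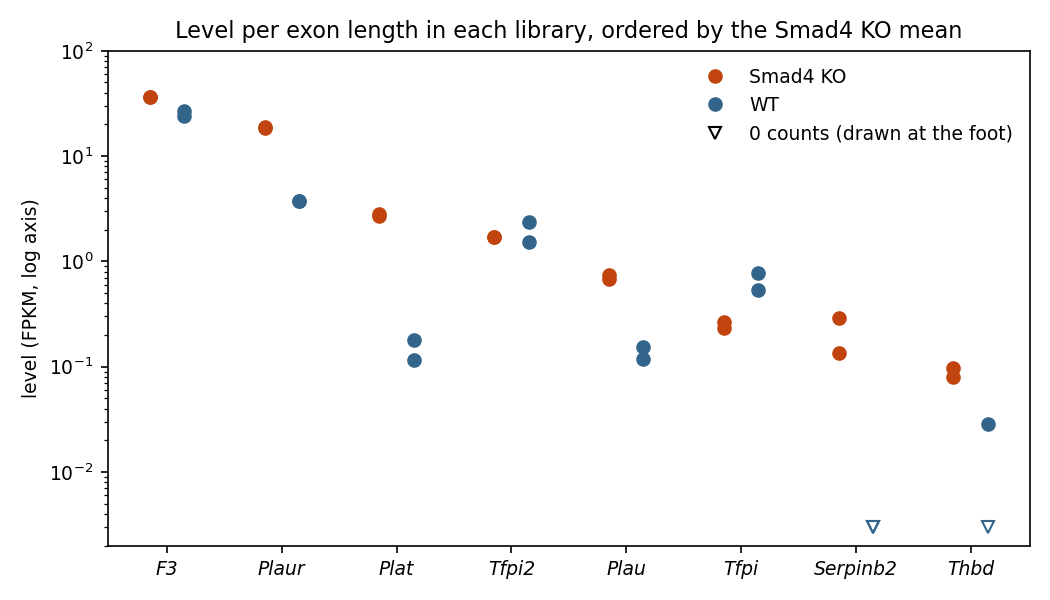
Level per exon length (vertical axis, FPKM on a log scale) of the 8 genes in each library, ordered by the Smad4 KO mean, with Smad4 KO left of WT. Open triangles at the foot stand for libraries with 0 counts, which were both WT libraries for Serpinb2 and 1 for Thbd.

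Beyond the activators, their receptor and Serpinb2, the protease and inhibitor genes around them were counted. Of 18 other genes of plasminogen activation 13 could be tested, of which 1 rose, 1 fell and 11 did not pass, with a median log2 fold change of 0.20. The share that passed (15.4%) was near that of all tested genes (15.2%). St14 (matriptase), a membrane protease that can activate the urokinase precursor, had 762 and 784 CPM in Smad4 KO and 649 and 645 CPM in WT and rose 1.19-fold (edgeR adjusted p = 0.0228). Its call was lost without either Smad4 KO library (edgeR adjusted p up to 0.203). Hpn (hepsin), a related membrane protease, had 1.43 and 1.87 CPM in Smad4 KO and 5.22 and 4.77 CPM in WT and fell 3.02-fold (edgeR adjusted p = 0.0153), also lost without either Smad4 KO library (edgeR adjusted p up to 0.0824). The matriptase inhibitors Spint2 (1379 and 1434 CPM in Smad4 KO, 1254 and 1194 CPM in WT, edgeR adjusted p = 0.0532) and Spint1 (211 and 233 CPM in Smad4 KO, 246 and 252 CPM in WT, edgeR adjusted p = 0.194) did not pass.

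Plg, plasminogen itself, which the liver makes, was picked out after its values were seen and had no count in any of the 4 libraries. That allows up to 0.0237 CPM in Smad4 KO and 0.0299 CPM in WT for counting error, if low counts were not set to 0.

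Among the surface binding sites more genes rose than fell. Of 14 receptors and partners of plasminogen and urokinase 13 could be tested, of which 6 rose, 1 fell and 6 did not pass, with a median log2 fold change of 0.51. That is 53.8% passing, against 15.2% of all tested genes, where rises (8.83%) also outnumbered falls (6.40%). Anxa2 and S100a10 form the complex that docks plasminogen and Plat together. Anxa2 had 1392 and 1394 CPM in Smad4 KO and 763 and 703 CPM in WT, a rise of 1.9-fold (edgeR adjusted p = 0.000759) that held whichever library was left out. S100a10 had 510 and 486 CPM in Smad4 KO and 303 and 231 CPM in WT, a rise of 1.86-fold (edgeR adjusted p = 0.0116) that was lost without Smad4 KO replicate 1 or 2 (edgeR adjusted p up to 0.0580). Eno1, a glycolytic enzyme that also binds plasminogen at the surface, rose 1.29-fold (612 and 702 CPM in Smad4 KO, 513 and 506 CPM in WT, edgeR adjusted p = 0.0340). Scaled by library totals, and without Smad4 KO replicate 2 or either WT library, it did not pass (edgeR adjusted p up to 0.176).

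The integrin subunit Itgb1, a partner of the urokinase receptor, had 452 and 432 CPM in Smad4 KO and 309 and 311 CPM in WT and rose 1.43-fold (edgeR adjusted p = 0.00419). Itgam, a subunit of the leukocyte integrin that pairs with Plaur on myeloid cells, had 12.6 and 11.4 CPM in Smad4 KO and 2.15 and 0.826 CPM in WT and rose 7.93-fold (edgeR adjusted p = 0.0117). Without Smad4 KO replicate 1 the adjusted p of Itgam was 0.0512, and without WT replicate 1 its log2 fold change was 3.84 against 2.99 with all libraries. Itgam is itself carried by neutrophils and macrophages. Of 10 macrophage markers 2 rose and 8 did not pass (20% passed, against 15.2% of all tested genes), with a median log2 fold change of 1.37. Cd14, the most abundant of them, had 136 and 134 CPM in Smad4 KO and 159 and 181 CPM in WT (edgeR adjusted p = 0.0550). Mrc1 was also lower in both Smad4 KO libraries, with 2.69 and 2.68 CPM against 5.03 and 3.62 CPM in WT (edgeR adjusted p = 0.147). All other markers that did not pass were higher in both Smad4 KO libraries, with log2 fold changes between 0.87 and 2.68. The 2 that rose were Lyz2, a lysozyme, with 18.8 and 18.9 CPM in Smad4 KO and 5.57 and 3.76 CPM in WT, and Csf1r, with 9.13 and 7.15 CPM in Smad4 KO and 3.19 and 3.26 CPM in WT. The macrophage list summed to 177 and 172 CPM in Smad4 KO and 177 and 195 CPM in WT, and without Cd14 to 40.9 and 38.6 CPM in Smad4 KO and 18.1 and 14.2 CPM in WT. Their part in the rise of Itgam was not tested.

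Vldlr and Lrp1, receptors that take up protease and inhibitor complexes, both passed and moved apart. Vldlr had 32.7 and 31.3 CPM in Smad4 KO and 15.2 and 15.6 CPM in WT, a rise of 2.08-fold (edgeR adjusted p = 0.00286) that held whichever library was left out. Lrp1 had 266 and 275 CPM in Smad4 KO and 353 and 370 CPM in WT, a fall of 1.33-fold (edgeR adjusted p = 0.00983) that was lost without either Smad4 KO library (edgeR adjusted p up to 0.0946).

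**Figure D4:**
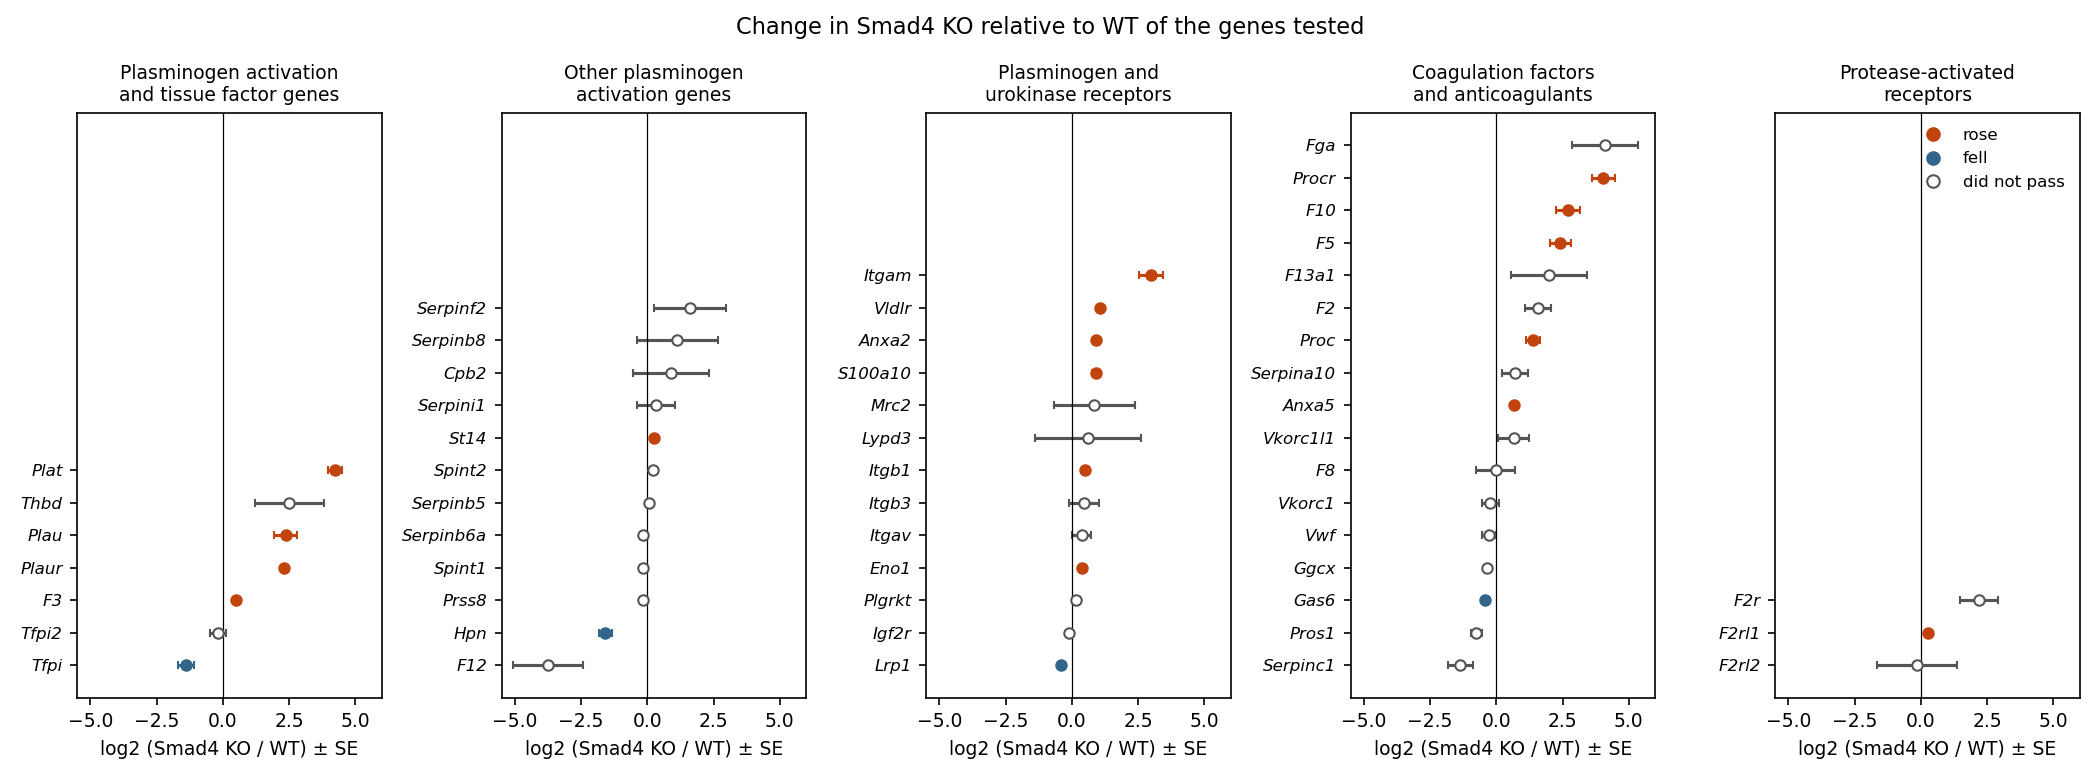
Log2 fold change of Smad4 KO over WT ± SE (horizontal axes) for tested genes of the 5 lists, with filled points for genes that rose (red) or fell (blue) and open points for those that did not pass. Serpinb2 is left out, since its WT libraries had no count and its fold rests on a floor of 3 counts. Among genes that passed, Plat, Itgam and Procr stand far to the right and Tfpi and Hpn to the left.

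Of 26 coagulation factors and anticoagulants 17 could be tested, of which 5 rose, 1 fell and 11 did not pass, with a median log2 fold change of 0.66. The share that passed was 35.3%, against 15.2% of all tested genes. Procr, the endothelial protein C receptor, which presents protein C to thrombin and Thbd, had 3.08 and 2.29 CPM in Smad4 KO and 0.141 and 0.183 CPM in WT. It rose 16.5-fold (log2 fold change 4.04 with an SE of 0.434, edgeR adjusted p = 0.00438), and the call held whichever library was left out (edgeR adjusted p up to 0.0458). Proc, protein C, had 4.49 and 3.79 CPM in Smad4 KO and 1.75 and 1.40 CPM in WT and rose 2.63-fold (edgeR adjusted p = 0.0263). That call was lost without Smad4 KO replicate 1, Smad4 KO replicate 2 or WT replicate 3 (edgeR adjusted p up to 0.156).

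Factor X, which tissue factor and factor VII activate, and its cofactor factor V were higher as well. F10 had 2.50 and 4.03 CPM in Smad4 KO and 0.635 and 0.367 CPM in WT and rose 6.43-fold (edgeR adjusted p = 0.0177, and 0.119 without Smad4 KO replicate 2). F5 had 2.71 and 2.53 CPM in Smad4 KO and 0.599 and 0.367 CPM in WT and rose 5.36-fold (edgeR adjusted p = 0.0162, and up to 0.0994 without either Smad4 KO library). Both are also known from myeloid cells. Of those, the summed neutrophil markers were higher in the same libraries, with the values given for Plaur. The summed macrophage markers were not higher with Cd14 included, as given for Itgam. Without Cd14 they were higher (40.9 and 38.6 CPM in Smad4 KO, 18.1 and 14.2 CPM in WT). The part of either cell type was not tested.

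Anxa5, which covers the phospholipid surfaces that clotting needs, had 62.9 and 62.4 CPM in Smad4 KO and 41.6 and 37.9 CPM in WT and rose 1.58-fold (edgeR adjusted p = 0.00789). Gas6, a vitamin K-dependent ligand of receptor kinases, had 315 and 330 CPM in Smad4 KO and 423 and 440 CPM in WT and fell 1.34-fold (edgeR adjusted p = 0.00905). Both calls were lost without Smad4 KO replicate 1 or 2 (for Anxa5 the edgeR adjusted p was up to 0.0703 and for Gas6 up to 0.0907). The genes F9, F11, Fgb, Fgg and Kng1 had no count in any library.

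The protease-activated receptors are cut open by thrombin, trypsin-like proteases or the complex of tissue factor with factors VII and X. F2rl1 (PAR2), the receptor of this family known from gut epithelium, had 179 and 174 CPM in Smad4 KO and 148 and 145 CPM in WT. It rose 1.21-fold (log2 fold change 0.27 with an SE of 0.0606, edgeR adjusted p = 0.0410), did not pass when scaled by library totals, and lost the call whichever library was left out (edgeR adjusted p between 0.0550 and 0.244). F2r (PAR1), the main thrombin receptor, had 0.499 and 0.989 CPM in Smad4 KO and 0.141 and 0.183 CPM in WT and did not pass (edgeR adjusted p = 0.113). F2rl2 had 0.166 and 0.180 CPM in Smad4 KO and 0.370 and 0 CPM in WT (edgeR adjusted p = 0.967). F2rl3 had 0 and 0.180 CPM in Smad4 KO and 0.159 and 0 CPM in WT, too few to test.

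Genes with profiles most like those of Plat, Plau, Plaur and F3 were found among 10261 genes of at least 5 CPM, by the Euclidean distance of log2(CPM + 1) over the 4 libraries after centring each gene on its mean. For Plat the nearest were Osr2 (distance 0.106), Ly6d (0.234) and Ido1 (0.274), the last an enzyme that breaks down tryptophan. Osr2, a zinc finger transcription factor, had 47.7 and 44.5 CPM in Smad4 KO and 3.33 and 4.50 CPM in WT. For Plaur they were Il1b (distance 0.0925), Hoxb7 (0.122) and Bmp3 (0.132), and Il1b, the interleukin 1β gene, had 58.9 and 58.3 CPM in Smad4 KO and 12.9 and 11.8 CPM in WT. For F3 they were Itprid2 (distance 0.0215), Cpne8 (0.0301) and Afap1l1 (0.0332). For Plau, whose low level makes its change small on this scale, they were Vldlr (distance 0.0383), Tpbg (0.0433) and Igsf23 (0.0475), with rises of 2.08, 2.25 and 2.17-fold. With 4 libraries in 2 groups such likeness is a description of the size of the difference between genotypes and of the spread.

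The remaining marker lists were read in the same way, beside the 15.2% of all tested genes that passed. Of 8 tested fibroblast markers 2 rose, with summed levels of 65.3 and 69.8 CPM in Smad4 KO and 38.9 and 39.0 CPM in WT, and all 10 had counts. Fbln1, the most abundant by the mean over all 4 libraries, had 28.1 and 34.7 CPM in Smad4 KO and 9.73 and 10.3 CPM in WT, and without it the list summed to 37.2 and 35.1 CPM in Smad4 KO and 29.1 and 28.7 CPM in WT. Dcn, the other that rose, had 10.1 and 9.02 CPM in Smad4 KO and 5.92 and 5.18 CPM in WT (edgeR adjusted p = 0.0357). Pdgfrb, the most abundant in WT, had 12.1 and 11.2 CPM in Smad4 KO and 11.8 and 11.2 CPM in WT. Neither it nor the collagens Col3a1 and Col1a1 passed (log2 fold changes of 0.01, 0.01 and 0.16). Col1a2, Pdgfra and Thy1 were higher in both Smad4 KO libraries and did not pass (log2 fold changes of 1.19, 2.24 and 0.81). The median log2 fold change of the 8 tested fibroblast markers was 0.80. Plat counts were 0.601 and 0.502 times those of Fbln1 in Smad4 KO and 0.0743 and 0.109 times in WT. Platelet and megakaryocyte markers summed to 1.95 and 2.59 CPM in Smad4 KO and 3.77 and 3.99 CPM in WT. Of 5 tested, 0 passed by edgeR, DESeq2 or limma-voom (3 at an unadjusted p under 0.05 by each). By edgeR these 3 were Itga2b and Gp6, lower in Smad4 KO, and Gp1bb, higher (log2 fold changes of -1.13, -2.17 and 2.32). Itga2b was the most abundant by the mean over all 4 libraries (1.14 CPM, with Pf4 at 1.05), and Ppbp and Treml1 had no count. Smooth muscle markers (93.9 and 90.0 CPM in Smad4 KO, 83.3 and 87.4 CPM in WT, mostly Mylk, with Lmod1 at no count) and mesothelial markers (8.20 and 8.60 CPM in Smad4 KO, 8.68 and 7.96 CPM in WT, led by Msln, with Krt5 at no count) had no member that passed by edgeR, DESeq2 or limma-voom. At an unadjusted p under 0.05, 1 of 6 smooth muscle markers passed by edgeR and by DESeq2 and 0 by limma-voom, and 0 of 5 mesothelial markers by any of these. In the neuron and glia list 1 of 6 rose, Ret, and Sox10 had no count. Ret made up most of the list's sums of 20.5 and 21.8 CPM in Smad4 KO and 8.83 and 8.01 CPM in WT. Without Ret the list was lower in Smad4 KO, at 1.71 and 1.68 CPM against 3.49 and 2.39 CPM in WT. The median log2 fold change of the 6 was -0.55. The squamous list summed to 4.89 and 4.51 CPM in Smad4 KO and 2.33 and 2.20 CPM in WT. Its most abundant member by the mean over all 4 libraries was Krt14 (1.38 and 1.21 CPM in Smad4 KO, 1.06 in each WT library). By edgeR 1 of 5 rose, Krt13 (1.75 and 1.59 CPM in Smad4 KO, 0.494 and 0.550 CPM in WT, adjusted p = 0.0477). DESeq2 called 2 of the 5 and limma-voom 0. Krt5, Krt4 and Sprr3 had no count. The part of these cell types in the changes of the 8 genes was not tested.

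**Figure D5:**
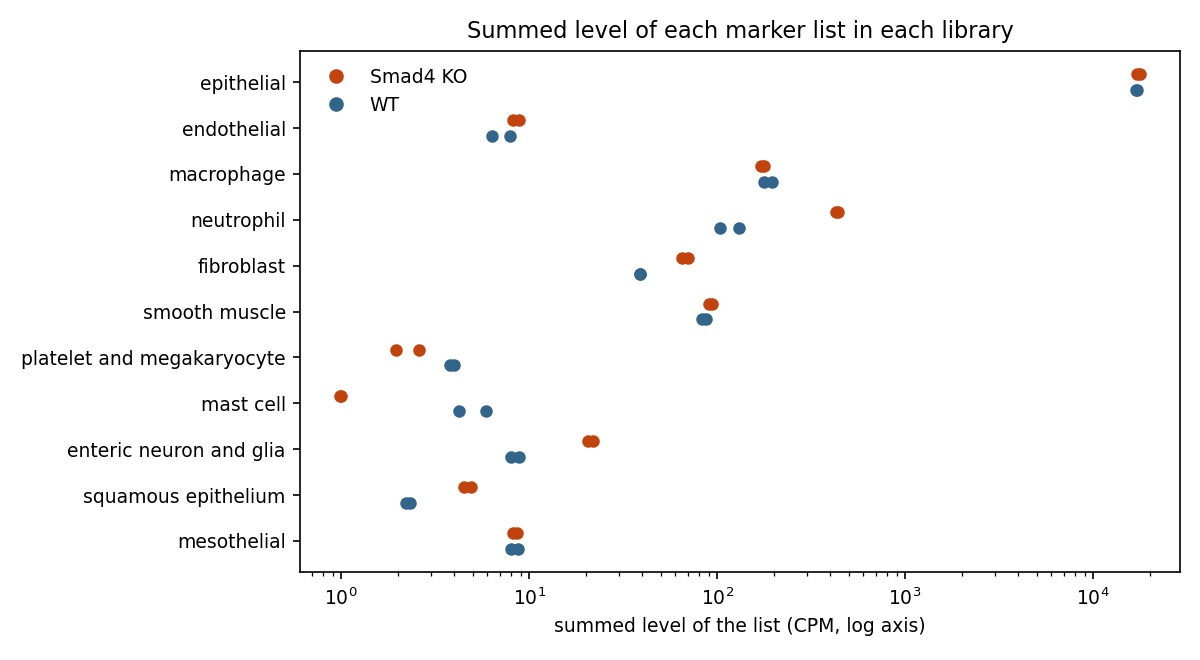
Summed level of each marker list (horizontal axis, CPM on a log scale) in the 2 Smad4 KO libraries (red) and the 2 WT libraries (blue). The neutrophil list stands at 440 and 427 CPM in Smad4 KO and 130 and 103 CPM in WT, and the epithelial list at 17146 and 17709 CPM in Smad4 KO and 17200 and 16894 CPM in WT.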

How the data were processed

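Colonic epithelial RNA was sequenced after DSS. The authors deposited whole-number counts per Ensembl gene, not normalized. FastQC (0.19.7), HISAT2 (2.1.0), SAMtools (1.9) and StringTie (1.3.3b) on GRCm38 were used, per the submitters' processing notes. The counting tool, the annotation and the strandedness were not given in the sources used here. Whether reads of overlapping genes on opposite strands were separated is therefore not known. GENCODE M21 named 31207 of 31227 IDs and gave positions and exon lengths (the union of all exons). Symbols were matched exactly, and 1 listed symbol (Protz) matched no ID. Of the list of other plasminogen activation genes, 1 gene is counted but not reported here.

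Of 19618 genes with a count, filterByExpr kept 15838 (a level of 0.171 CPM in 2 libraries). Scaling was by TMM, and the test was the quasi-likelihood test of edgeR 4.0.16 (in R 4.3.3) with genotype as the only term and Benjamini-Hochberg adjustment over all tested genes. The test was first checked on simulated data. The SE is the log2 fold change divided by the square root of F. A mean ± SD is not printed where both libraries are given.

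The 8 genes and all lists were chosen with earlier results of these data known. Named were the 8 genes, from each pathway list every gene that passed and otherwise the most abundant up to 4, and from each marker list the most abundant gene (by the mean over all 4 libraries) and those with no count. The marker genes S100a9, Csf3r, Lyz2, Csf1r, Mrc1, Dcn, Pdgfrb, Col3a1, Col1a1, Col1a2, Pdgfra and Thy1 were named after their values were seen. So were Pf4, Gp1bb, Gp6, Krt13, Mcpt1, Mcpt2, Mcpt4, Cpa3 and Tpsb2. Alternatives were DESeq2 size factors, upper-quartile scaling, library totals, 2 other filters, DESeq2 1.42.0, limma-voom (limma 3.58.1) and leaving out each library. The fits that left out a library assume that the lone library varies like the others.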

Additional observations from a re-analysis of the deposited data

How the results depend on the processing

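Of the 8 genes, 6 passed with all libraries, and 6 passed under DESeq2 size factors, upper-quartile scaling, library totals, no filter, DESeq2 and limma-voom. A filter of 1 CPM in 2 libraries left Serpinb2 and Thbd untested and 5 genes passing. With a library left out, 2 to 4 of the 8 passed: 2 without Smad4 KO replicate 1 or 2, and 4 without WT replicate 1 or 3. Over all genes the fits with a library left out called 975 to 2573 genes, against 2412 with all, the low counts being those without a Smad4 KO library (978 without replicate 1 and 975 without replicate 2). In the same fits, calls ranged from 0 to 4 among other plasminogen activation genes, 4 to 6 among plasminogen and urokinase receptors, 1 to 8 among coagulation genes and 0 among protease-activated receptors in all 4. DESeq2 called 4 other plasminogen activation genes where edgeR called 2, and with library totals 0 protease-activated receptors passed. Tfpi2 had a log2 fold change of -0.47 to 0.15 with a library left out and changed sign without WT replicate 1 (0.15). Why these values moved was not tested. No paired analysis was possible because the genotypes share only replicate number 1. Depth limits Serpinb2 and Thbd, with at most 41 counts in a library.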
